A study of Cardamine hirsuta with 24 samples.

Results

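*BGLU27* (CARHR170430), *BGLU45* (CARHR050520) and *DIN2* (CARHR000090) are 3 beta-glucosidase genes of *Cardamine hirsuta*, a small crucifer with dissected leaves. They were chosen by the measured difference between induced and control libraries: *BGLU27* and *BGLU45* stood among the genes lowered most after induction of *ChCUC1*, and *DIN2* is a relative from the same family that was lower too. That difference is therefore given below as a description, without a test. The counts list 29458 genes, of which 21689 passed the filter on low counts, and all 3 beta-glucosidases were among the genes that passed.

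All 24 libraries came from plants of the Oxford background with 1 inducible construct, RCOp::LhG4:GR with Op::ChCUC1:Venus, in which the activator LhG4:GR is made under the *RCO* promoter and enters the nucleus only when dexamethasone binds it. Seedlings 12 days old were put in liquid with 10 µM dexamethasone (Dex) or with 0.1% DMSO (Mock) for 2, 4, 6 or 8 h, and 3 pools of 20 seedlings were sequenced per treatment and time. The sampled tissue was the shoot apex with young leaves, without cotyledons, mature leaves and roots, whereas the *RCO* promoter is active only in small foci of the leaf margin, so only part of the cells in a pool lay in its domain. Mock plants carried the same construct, and no plants without it were treated with Dex among these libraries, so effects of ChCUC1 and of Dex itself cannot be told apart. In such bulk tissue, fewer cells that express a gene and less RNA per cell cannot be told apart either. The labels number the replicates 1 to 3 and do not say what a number stands for, so p-values measure the spread between pools, with all pools taken as independent.

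Beta-glucosidases of glycoside hydrolase family 1 remove the terminal glucose from small glucosides, many of which plants store in an inactive or transportable form. In *Arabidopsis thaliana*, BGLU45 and its close relative BGLU46 act on monolignol glucosides such as coniferin, the storage forms of the alcohols that are built into lignin. BGLU47 is placed with them as a close relative. *DIN2*, also known as *BGLU30*, was found in *A. thaliana* as a gene induced by darkness and by lack of sugar, and its product takes part with BGLU28 in breaking down glucosinolates, the sulfur-rich defence glucosides of crucifers, when sulfur is short.

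Each library held 12.9 M to 22.96 M reads in genes (median 19.5 M), and levels are given as CPM, the reads of a gene relative to the scaled total of its library. One read was worth 0.0441 to 0.0788 CPM. *ChCUC1* itself was read at 0.778 to 4.40 CPM in Mock (median 2.78) and at 6.18 to 11.6 CPM in Dex (median 8.36), so every Dex library lay above every Mock library and the labels held. The apex and young leaf markers were all present, with a summed level of 95.7 to 132 CPM in Mock and 114 to 150 CPM in Dex. Some libraries deviated together from their groups: in Dex, the deviations of replicate 1 at one time correlated with those of replicate 1 at the other times with r from 0.513 to 0.797 across genes, and those of replicate 2 with r from 0.466 to 0.688. For Dex replicate 3 the range was -0.188 to 0.544 (median -0.0895), and the medians for Mock replicates 1, 2 and 3 were 0.200, 0.149 and 0.0308. Values are therefore given for each replicate number, and the results that rest on replicate 1 are given with and without it. The main fit took the libraries of a treatment as independent. Where libraries of the same number deviate together, its SE and p-values for the average over the times may be too small.

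*BGLU27* was low in most libraries and close to absent after Dex. At 2 h it stood at 3.71, 0.616 and 2.02 CPM in Mock replicates 1, 2 and 3 and at 0.524, 0.238 and 0.449 CPM in the Dex replicates. At 4 h the Mock values were 13.85, 2.55 and 0.533 CPM, and the Dex values 0, 0.0788 and 0.691 CPM. Replicate 1 was thus the highest Mock library at both times, and at 4 h the Dex library of the same number held no read at all. A count of 0 there allows up to 3 reads or 0.137 CPM. That limit is 101-fold lower than the Mock value of the same number and time, if the Mock value is taken as exact. At 6 h *BGLU27* was at 13.4, 1.70 and 1.15 CPM in Mock and at 0.0882, 0.719 and 0.262 CPM in Dex. At 8 h it was at 4.23, 3.42 and 2.87 CPM in Mock and at 0.0476, 2.03 and 0.683 CPM in Dex. The Mock and Dex ranges were apart at 2, 6 and 8 h and overlapped at 4 h, where Dex replicate 3 was above Mock replicate 3.

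The 12 Dex libraries held 0 to 38 *BGLU27* reads each (median 7.5) and the 12 Mock libraries 8 to 222 (median 49.5), so single Dex values carry a large counting error. Means were 2.11 ± 1.55 (SD, n = 3), 5.64 ± 7.18, 5.40 ± 6.90 and 3.51 ± 0.684 CPM in Mock at 2, 4, 6 and 8 h. In Dex they were 0.404 ± 0.149, 0.257 ± 0.378, 0.357 ± 0.326 and 0.919 ± 1.01 CPM. The SD at 4 and 6 h in Mock exceeded the mean because of 1 library at each time. The ratio of the Mock to the Dex mean was 5.23, 22, 15.2 and 3.82 at the 4 times, and the fitted average difference was -3.16 ± 0.63 on the log2 scale (SE, 8.96-fold lower in Dex).

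*BGLU45*, the relative of the monolignol glucosidases, showed the same shape at a several-fold difference. At 2 h it was at 15.8, 2.51 and 6.10 CPM in Mock and at 1.33, 1.19 and 0.764 CPM in Dex. At 4 h it was at 26.6, 1.78 and 3.4 CPM in Mock and at 0.596, 0.315 and 1.27 CPM in Dex. Replicate 1 was again the highest in Mock at both times, and in Dex it was not set apart from the other replicates at these times. At 6 h the Mock libraries held 28.7, 7.10 and 3.70 CPM and the Dex libraries 0.176, 1.23 and 1.36 CPM. At 8 h the Mock libraries held 17.3, 2.62 and 10.4 CPM and the Dex libraries 0.856, 6.40 and 3.01 CPM. The ranges were apart at 2, 4 and 6 h, and at 8 h Dex replicates 2 and 3 were both above Mock replicate 2.

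Mean levels of *BGLU45* were 8.13 ± 6.87, 10.6 ± 13.9, 13.2 ± 13.6 and 10.1 ± 7.34 CPM in Mock (SD, n = 3) at 2, 4, 6 and 8 h. They were 1.10 ± 0.296, 0.726 ± 0.489, 0.924 ± 0.651 and 3.42 ± 2.79 CPM in Dex. Mock was 7.42, 14.6, 14.3 and 2.95 times Dex at these times, and the fitted average was -3.03 ± 0.55 on the log2 scale (SE, 8.17-fold lower). The smallest ratio, at 8 h, came with the highest Dex values of the series for this gene, 6.40 CPM in replicate 2 and 3.01 CPM in replicate 3. Over all times *BGLU45* held 4 to 120 reads in a Dex library (median 23) and 28 to 443 in a Mock library (median 133).

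*DIN2* differed less between the treatments and its replicates were further apart in Dex than in Mock. At 2 h it was at 2.3, 8.90 and 6.39 CPM in Mock and at 0.619, 9.89 and 2.02 CPM in Dex. At 4 h it was at 7.36, 4.01 and 2.93 CPM in Mock and at 0.504, 1.81 and 4.38 CPM in Dex. The treatments overlapped at both times, and the lowest value of each time was Dex replicate 1. At 6 h the Mock libraries held 31.5, 11.4 and 8.34 CPM and the Dex libraries 0.573, 14.6 and 5.29 CPM. At 8 h the Mock libraries held 15.2, 14.5 and 14.6 CPM and the Dex libraries 0.856, 9.44 and 3.87 CPM. Only at 8 h were the ranges apart, and there the 3 Mock libraries lay within 1.05-fold of each other while the Dex libraries spanned 11-fold.

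In Mock the mean of *DIN2* was 5.87 ± 3.33, 4.77 ± 2.31, 17.1 ± 12.6 and 14.7 ± 0.356 CPM (SD, n = 3) at 2, 4, 6 and 8 h. In Dex it was 4.18 ± 5.0, 2.23 ± 1.97, 6.84 ± 7.16 and 4.72 ± 4.35 CPM. Mock was 1.40, 2.14, 2.50 and 3.12 times Dex, an order that grew with time, but the fitted differences of -0.50, -1.11, -1.32 and -1.65 each had an SE between 0.97 and 1.05. Its average fit was -1.14 ± 0.50 on the log2 scale (SE, 2.21-fold lower).

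**Figure D1:**
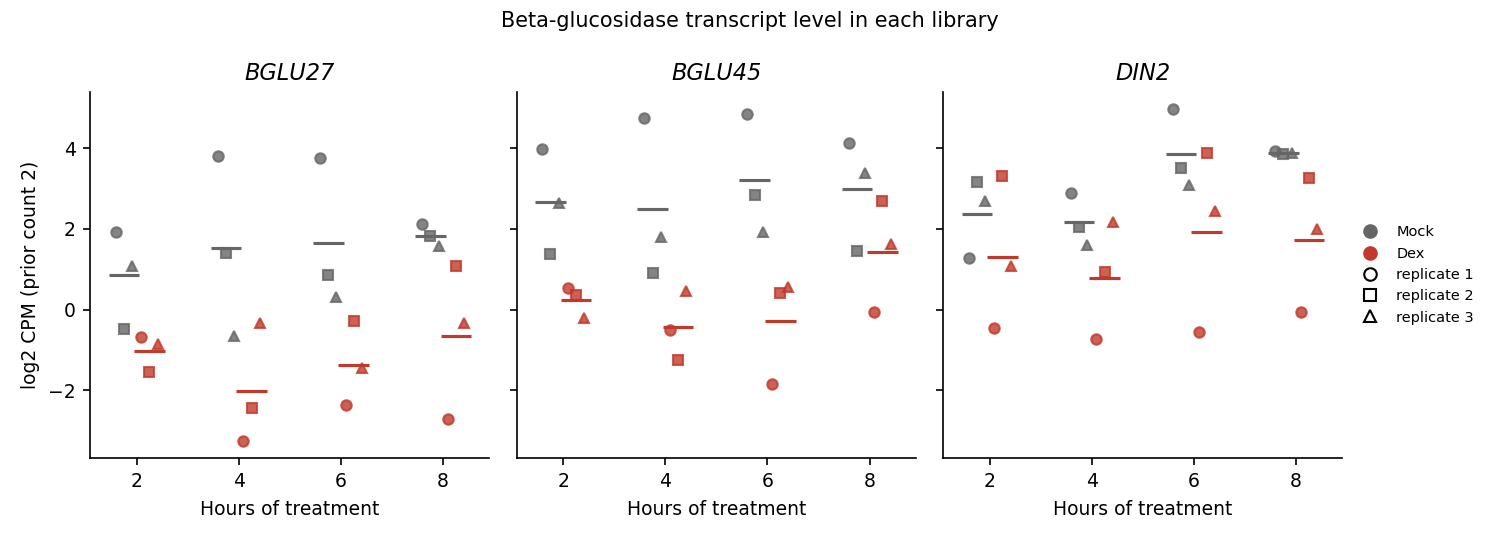
Level of *BGLU27*, *BGLU45* and *DIN2* in each of the 24 libraries as log2 CPM with a prior count of 2 (vertical axis) against hours of treatment, with Mock in grey, Dex in red, 1 symbol per replicate number and a bar at the mean of the 3 log2 values. Replicate 1 (circles) is the highest Mock library of *BGLU27* and *BGLU45* at each time and the lowest Dex library of *DIN2* at each time.

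For other genes, called lower or higher below means an adjusted p under 0.05 (Benjamini-Hochberg over all genes tested) and a fold over 1.5 in the average over the times, which 13.7% of all genes tested met, 8.89% lower and 4.76% higher. The 3 genes were chosen on that contrast and no call is given for them. The 3 Dex libraries lay below the 3 Mock libraries for *BGLU27* and *BGLU45* at 2 h, where this held for 15.1% of all genes, and for *BGLU45* at 4 h, where it held for 11.8%. At 6 h it held for both genes and for 4.23% of all genes, and at 8 h for *BGLU27* and *DIN2* and for 19.1%. Over the 12 same-numbered pairs of a Dex and a Mock library, *BGLU27* was lower in Dex in 11, *BGLU45* in 11 and *DIN2* in 9, where 6.82% of all genes were lower in at least 11, 23.9% in at least 9 and 1.52% in all 12. None of the 3 genes had all 12 Dex libraries below all 12 Mock libraries, which 2 genes (0.00922%) had. These counts describe the contrast that chose the genes, and nothing is read from them.

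Ordered by mean level, the 4 Mock groups of *BGLU27* came first (4, 6, 8 and 2 h), followed by Dex at 8, 2, 6 and 4 h. *BGLU45* had the same division, with Mock at 6, 4, 8 and 2 h above Dex at 8, 2, 6 and 4 h. For *DIN2* the treatments were interleaved: Mock at 6 and 8 h was highest, Dex at 6 h came next, above Mock at 2 and 4 h, and Dex at 8, 2 and 4 h was lowest. In all 3 genes each of the 7 neighbouring groups in the order overlapped the next in its range, so no step from one group to the next was beyond the spread of the replicates.

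Time was compared next, since the rule that chose the genes did not use it. Within Mock, no difference between the 4 times was detected for *BGLU27* (adjusted p = 0.661), *BGLU45* (adjusted p = 0.940) or *DIN2* (adjusted p = 0.326) by the quasi-likelihood test of edgeR (Benjamini-Hochberg adjusted over all genes), in which 25.1% of all genes passed. From 2 to 8 h in Mock the fitted change was 0.74 ± 1.06 for *BGLU27*, 0.32 ± 0.95 for *BGLU45* and 1.32 ± 0.97 for *DIN2* on the log2 scale (SE). The standard errors were as large as or larger than the changes in *BGLU27* and *BGLU45*, so only large changes with time were detectable in these genes.

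Within Dex the same test gave adjusted p = 0.808 for *BGLU27*, 0.430 for *BGLU45* and 0.750 for *DIN2* by edgeR, and 14.7% of all genes passed. Without replicate 1 the adjusted p of *BGLU45* was 0.0513 by edgeR, close to the threshold. The highest Dex mean of *BGLU27* and of *BGLU45* was that at 8 h, with fitted changes from 2 h of 1.15 ± 1.30 and 1.63 ± 1.08 on the log2 scale (SE). That of *DIN2* was at 6 h, and its change from 2 to 8 h was 0.17 ± 0.99.

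Whether the difference between Dex and Mock itself varied with time was tested by the interaction of treatment and time. The adjusted p was 1 for each of the 3 genes by edgeR, and the test called 0 of the 21689 genes, with 469 (2.16%) at an unadjusted p under 0.05 and 1 gene called by DESeq2. For *BGLU27* the fitted difference was -2.35 ± 1.25, -4.44 ± 1.36, -3.91 ± 1.27 and -1.95 ± 1.13 at 2, 4, 6 and 8 h. For *BGLU45* it was -2.88 ± 1.08, -3.83 ± 1.16, -3.84 ± 1.13 and -1.57 ± 0.99. The deeper values at 4 and 6 h than at 2 and 8 h in both genes were thus within the spread of the replicates.

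The difference did vary with the replicate number. Averaged over the 4 times in log2 CPM, Dex minus Mock came to -5.16 ± 1.94, -1.70 ± 1.45 and -1.33 ± 1.10 for *BGLU27* in replicates 1, 2 and 3 (SD over times, n = 4). For *BGLU45* it was -4.90 ± 1.40, -1.09 ± 1.68 and -1.83 ± 0.70. For *DIN2* it was -3.72 ± 1.57, -0.30 ± 0.68 and -0.90 ± 1.11. In each gene the difference of replicate 1 was several times larger on the log scale than that of the other replicates.

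The interaction of treatment and replicate number passed the test for all 3 genes, with adjusted p = 0.0311 for *BGLU27*, 0.00510 for *BGLU45* and 0.00394 for *DIN2* by edgeR's quasi-likelihood test, as it did for 30.3% of all genes tested. For *BGLU27* it was lost without replicate 2 (adjusted p = 0.0870 by edgeR) and without any 1 of 8 single libraries of replicates 1 and 2 at 4 to 8 h (up to 0.120). It was already known of the genes called in this series that their changes were larger in replicate 1, so this is no independent finding about the beta-glucosidases. Without replicate 1 it passed for none of the 3, with adjusted p = 0.972, 0.630 and 0.642 by edgeR and 0 genes called in all (1888 at an unadjusted p under 0.05), which does not show that replicates 2 and 3 were alike.

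Both treatments contributed. The Mock mean of *BGLU45* over the times was 22.1 CPM in replicate 1 against 3.501 and 5.90 CPM in replicates 2 and 3, and the Dex mean was 0.741 CPM in replicate 1 against 2.28 and 1.60 CPM. *BGLU27* stood at 8.79 CPM in Mock replicate 1 against 2.07 and 1.64 CPM, and at 0.165 CPM in Dex replicate 1 against 0.766 and 0.521 CPM. *DIN2* was at 14.1 CPM in Mock replicate 1 against 9.69 and 8.06 CPM, and at 0.638 CPM in Dex replicate 1 against 8.94 and 3.89 CPM. Replicate 1 therefore held the highest Mock mean and the lowest Dex mean of each gene. In *DIN2* the Dex means were further apart than the Mock means, while in *BGLU27* and *BGLU45* both were several-fold apart.

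Without replicate 1 the average difference was -1.63 ± 0.42 for *BGLU27*, -1.57 ± 0.36 for *BGLU45* and -0.40 ± 0.32 for *DIN2* (log2, SE), against -3.16, -3.03 and -1.14 with all libraries. The direction was the same without replicate 1 and the differences were smaller, as the plot of the difference by replicate number shows. Without replicate 2 the values were -3.87, -3.64 and -2.04, and without replicate 3 they were -4.11, -3.47 and -1.38.

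**Figure D2:**
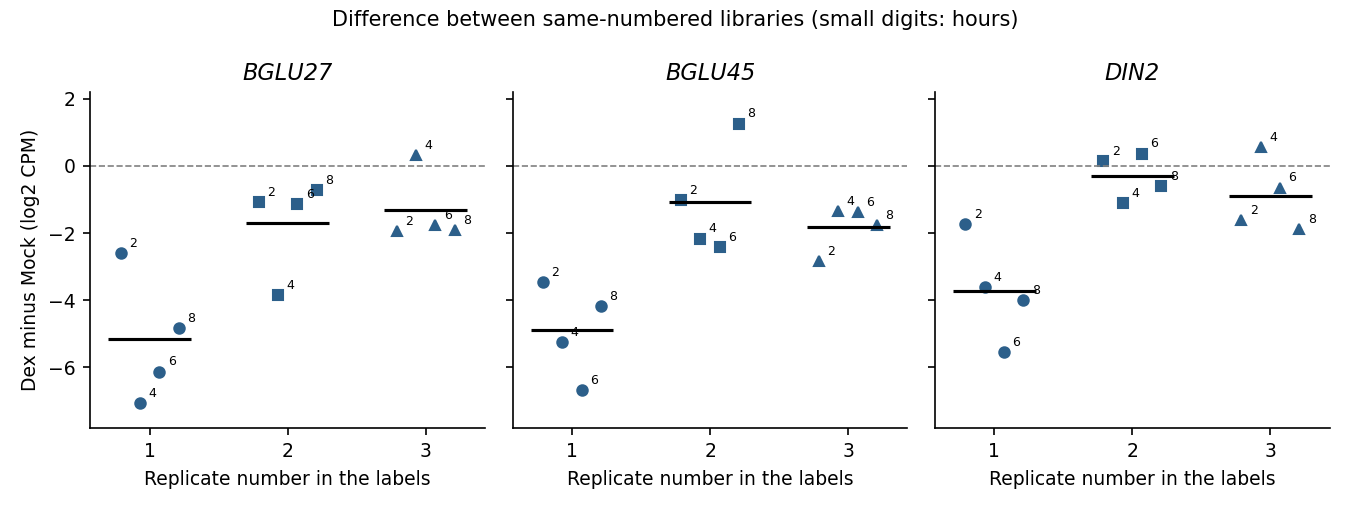
Dex minus Mock in log2 CPM (vertical axis) between libraries of the same time and replicate number, plotted by replicate number, with 1 point per time (small digits give the hours) and a bar at the mean of the 4 times. Replicate 1 has the lowest mean for each gene, -5.16, -4.90 and -3.72 for *BGLU27*, *BGLU45* and *DIN2*, and 5 of the 36 points lie above 0.

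Stress genes moved with the same libraries. A list of 19 heat shock genes had a summed level of 839 to 3960 CPM in Mock (median 1180) and of 124 to 1020 CPM in Dex (median 450). In the average 19 of the 19 were called lower, 2 without replicate 1 and 0 without replicate 3. Of the 19, 17 were paired with an *A. thaliana* gene only through the study's own tables of changed genes, which favours a call. Among all paired genes tested 34.1% were called lower, against 8.89% of all genes, and nothing is read from the count. By replicate number the mean of the heat shock sum was 3020, 988 and 1290 CPM in Mock and 189, 745 and 534 CPM in Dex. This was the same order of replicate 1 against the others as in the beta-glucosidases. A list of 8 hypoxia genes ran from 284 to 2480 CPM in Mock and from 69.5 to 924 CPM in Dex. Of the 8, 5 were called lower, 1 without replicate 1 and 0 without replicate 3. Here 6 of the 8 were paired only through the tables of changed genes, and the same shares of 34.1% and 8.89% apply. The replicate means of the hypoxia sum were 1470, 725 and 724 CPM in Mock and 114, 561 and 342 CPM in Dex. The part of either list in the difference of the beta-glucosidases was not tested.

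Across the 24 libraries the log2 level of *BGLU27*, *BGLU45* and *DIN2* correlated with the log2 heat shock sum with r = 0.800, 0.826 and 0.737, as a description of points that share library, treatment and replicate number. Over the 16 libraries of replicates 2 and 3 it was 0.487, 0.637 and 0.536. Within the 12 Mock libraries r was 0.659, 0.783 and -0.0588, and within the 12 Dex libraries 0.521, 0.524 and 0.945. *DIN2* thus followed the heat shock genes within Dex and did not within Mock. With the hypoxia sum r was 0.837, 0.802 and 0.857 over all libraries, 0.749, 0.607 and 0.629 within Mock and 0.697, 0.698 and 0.881 within Dex, and over replicates 2 and 3 it was 0.703, 0.633 and 0.638. The apex and young leaf sum went the other way, with r = -0.750, -0.754 and -0.537 over all libraries and -0.383, -0.436 and -0.151 over replicates 2 and 3, and its part was not tested. It was not alone in this, and the r of the root hair and mature leaf sums is given below.

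**Figure D3:**
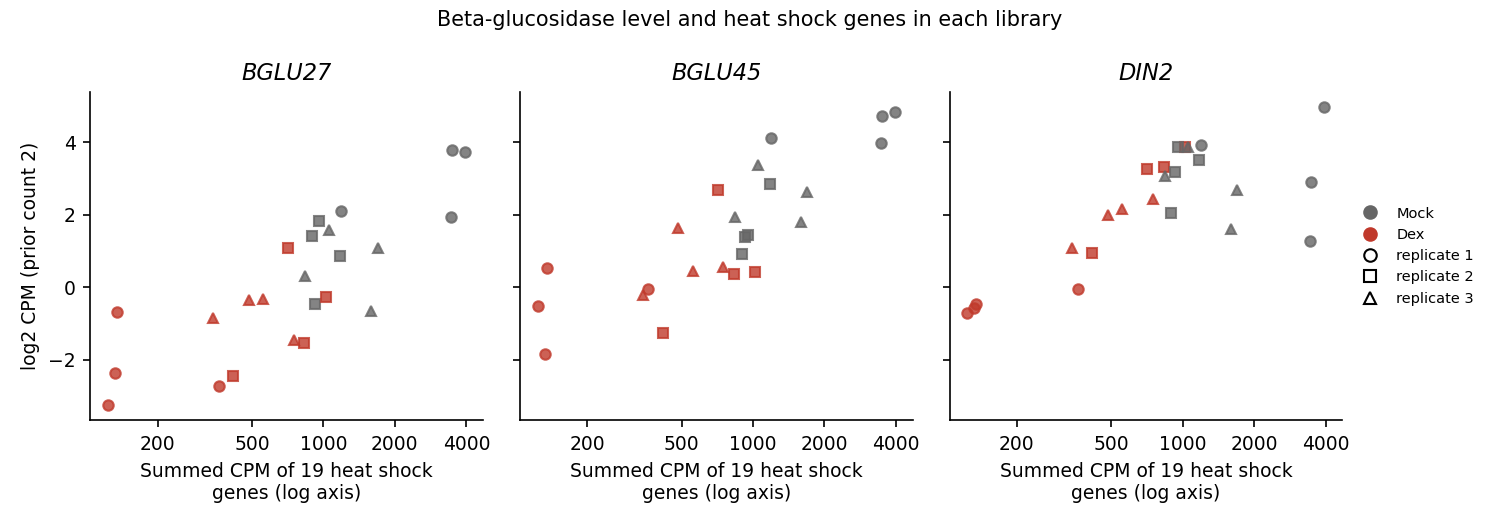
Level of each beta-glucosidase as log2 CPM with a prior count of 2 (vertical axis) against the summed CPM of 19 heat shock genes in the same library (horizontal log axis), with Mock in grey, Dex in red and 1 symbol per replicate number. Replicate 1 takes both ends of the heat shock axis, up to 3960 CPM in Mock and down to 124 CPM in Dex, and *DIN2* follows the axis in Dex (r = 0.945, 12 libraries) and not in Mock (r = -0.0588).

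Markers of tissues outside the apex were summed in the same way. The sum of 12 root hair genes was 25.4 to 175 CPM in Mock (median 33.2) and 32.9 to 452 CPM in Dex (median 60.3). Of these 12 genes, 7 were paired with an *A. thaliana* gene only through the study's tables of changed genes. Among the 11 tested, 4 were called higher and 0 lower, against 4.76% of all genes and 16% of all paired genes called higher. That count was 0 without replicate 1 or without replicate 3, 1 with a replicate block and 7 without replicate 2 or by DESeq2. Over single left-out libraries it ran from 1 (Dex replicate 1 at 4, 6 or 8 h, or Dex replicate 3 at 8 h) to 7 (Dex replicate 2 at 2 h). The sum of 9 mature leaf genes was 8710 to 28100 CPM in Mock and 8820 to 26900 CPM in Dex. The largest part was *CAB1*, at 6190 to 18700 and 5450 to 16800 CPM, with a log2 difference of 0.00 ± 0.14. Of the 9 genes 1 was called, higher in Dex (0 without replicate 1 or 3, 3 without replicate 2). Their median difference was 0.46 on the log2 scale against 0.04 over all genes, and 0.33 against 0.01 without replicate 1. By edgeR 7 had an unadjusted p under 0.05, of which 0 were lower, so the level sums do not describe the single genes. For *BGLU27*, *BGLU45* and *DIN2*, r with the log2 root hair sum was -0.468, -0.463 and -0.471 over all libraries. Over replicates 2 and 3 it was -0.469, -0.387 and -0.353. With the mature leaf sum r was -0.0787, -0.123 and -0.114 over all libraries and -0.652, -0.577 and -0.585 over replicates 2 and 3. It was -0.234, -0.0745 and -0.686 within Mock and 0.142, -0.164 and 0.272 within Dex. No gene of either list was at 0 in every library, and the part of these tissues in the beta-glucosidase values was not tested.

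The rest of the family did not fall as a group. Of 48 family members listed from *A. thaliana*, 15 could be paired with a *C. hirsuta* gene and 13 of these were tested, among them the 3 described here. The pairs came partly from the study's own tables of changed genes, and 50.2% of all paired genes tested were called (34.1% lower, 16% higher). Of the other 10 family genes 1 was called higher, 1 lower and 8 were not called, with a median difference of -0.10 on the log2 scale against 0.04 over all genes. With replicates 1 and 2 alone 0 genes in all were called in the average (8601 at an unadjusted p under 0.05), so every call of Dex against Mock named here was lost without replicate 3. The values of *BGLU25*, *BGLU28*, *BGLU46* and *BGLU47* kept their sign there, and the other family genes named below were not followed in that fit.

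The family gene called higher was *BGLU47* (CARHR228500), the monolignol glucosidase relative, which ran from 0.130 to 1.61 CPM in Mock (median 0.567) and from 0.419 to 5.14 CPM in Dex (median 1.76). It rose by 1.75 ± 0.42 (log2, SE, adjusted p = 0.00722 by edgeR), opposite to *BGLU45*. In replicate 1 its mean was 0.404 CPM in Mock and 3.59 CPM in Dex, and all 4 times were higher in Dex. In replicate 2 the means were 0.879 and 0.860 CPM and in replicate 3 they were 0.674 and 1.81 CPM, and without replicate 1 the value was 0.79 (adjusted p = 0.244 by edgeR).

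*BGLU46* (CARHR050510), the other relative of *BGLU45*, was nearly level. It ran from 27.2 to 67.2 CPM in Mock and from 25.5 to 50.0 CPM in Dex, and its difference of -0.24 ± 0.08 (log2, SE, adjusted p = 0.0309 by edgeR) was under the fold limit. Replicates 1, 2 and 3 gave -0.30, -0.20 and -0.22, so it had no excess in replicate 1, and the interaction with replicate number gave adjusted p = 0.915 by edgeR. Unlike *BGLU45* it varied with time in Mock (adjusted p = 4.87e-04 by edgeR). Across the 24 libraries the r of *BGLU45* was 0.239 with *BGLU46* and -0.679 with *BGLU47*. The 3 related genes thus had 3 different patterns, although reads that fit several close copies could be lost or split among them in the counting.

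*BGLU28* (CARHR139620), whose product is known to work with that of *DIN2* in *A. thaliana*, resembled *DIN2* mainly in the large difference of replicate 1. It ran from 5.02 to 60.1 CPM in Mock (median 14.4) and from 0.476 to 36.8 CPM in Dex (median 9.23), and its difference of -0.99 ± 0.45 (log2, SE) did not pass (adjusted p = 0.0922 by edgeR). It passed without Dex replicate 2 at 2 h (-1.31, adjusted p = 0.0375 by edgeR) or without Dex replicate 3 at 6 h (-1.26, adjusted p = 0.0379). Without replicate 1 it was -0.22 (adjusted p = 0.672 by edgeR). Replicates 1, 2 and 3 gave Dex minus Mock values of -3.74, -0.13 and -0.49, where *DIN2* had -3.72, -0.30 and -0.90, and the interaction with replicate number passed (adjusted p = 0.00682 by edgeR). In replicate 3 the mean of *BGLU28* was 13.65 CPM in Mock and 15.39 CPM in Dex, while that of *DIN2* was 8.06 and 3.89 CPM. The r of *BGLU28* with *DIN2* was 0.748 over 24 libraries, 0.627 within Mock and 0.703 within Dex, and 1436 genes were more like *DIN2* than *BGLU28* was.

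Of the remaining family genes, *BGLU25* was called lower, with a log2 difference of -0.67 ± 0.22 (adjusted p = 0.0266 by edgeR), with a median of 179 CPM in Mock and 88.4 CPM in Dex. It was not called without replicate 1 (-0.29, adjusted p = 0.181), nor without Mock replicate 1 at 4 h (-0.63) or at 6 h (-0.55), or Dex replicate 1 at 6 h (-0.57). *BGLU26*, known in *A. thaliana* as *PEN2*, an enzyme of glucosinolate-based defence, differed by -0.46 ± 0.09 (adjusted p = 0.0050 by edgeR) and *BGLU4* by 0.52 ± 0.16 (adjusted p = 0.0178 by edgeR), both under the fold limit. *BGLU7* and *BGLU9* differed by 0.04 ± 0.09 and 0.12 ± 0.08, and *BGLU11* and *BGLU19* by -0.60 ± 0.28 and 0.99 ± 0.52, none of which passed.

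**Figure D4:**
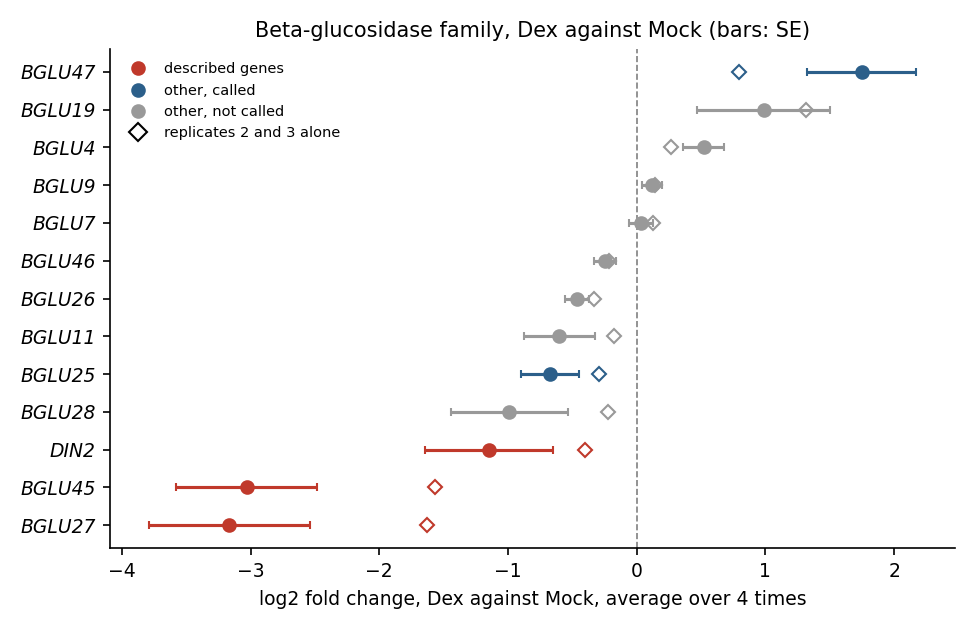
Average log2 fold change of Dex against Mock over the 4 times for the 13 beta-glucosidase genes tested, with points at the fit on all 24 libraries, bars for its SE and open diamonds for the fit on replicates 2 and 3 alone. *BGLU27*, *BGLU45* and *DIN2* are in red and have the 3 lowest values, other called genes are in blue, and the values of the 3 red genes without replicate 1 are -1.63, -1.57 and -0.40.

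Genes around monolignols moved in both directions. Of the 13 tested genes of this list other than *BGLU45*, 5 were called higher, 3 lower and 5 neither, with a median of 0.13 on the log2 scale. Among all paired genes tested, 16% were called higher and 34.1% lower. With *BGLU45* the list held 14 pairs, 6 of them only from the study's tables of changed genes. Beside *BGLU47* the higher genes included *UGT72E1* (1.90 ± 0.41) and *UGT72E2* (1.44 ± 0.38), glucosyltransferases that act on monolignols or related compounds in *A. thaliana*. *4CL3* (1.08 ± 0.22) and *CAD4* (0.93 ± 0.24), enzymes of the phenylpropanoid and monolignol path, completed them, with adjusted p from 0.0050 to 0.0102 by edgeR over these 5 genes.

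The lower genes were *CCR2* (-2.0 ± 0.44), which reduces the CoA esters on the way to monolignols, *CAD8* (-1.28 ± 0.24) and *CAD5* (-0.70 ± 0.09), with adjusted p from 0.00221 to 0.00592 by edgeR. *CCR2* ran from 6.60 to 62.3 CPM in Mock (median 9.39) and from 0.882 to 16.5 CPM in Dex (median 4.09). Without replicate 1 only *CAD8* of these 8 genes was called (-0.61, adjusted p = 0.0381 by edgeR), and *CAD5* passed the test but not the fold limit (-0.58, adjusted p = 0.0181). The glucosyltransferases and the glucosidase *BGLU45* thus differed in opposite directions with all libraries, and the former did not hold without replicate 1 (0.97 and 0.57, adjusted p = 0.0690 and 0.368 by edgeR).

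Of 11 genes of darkness and sugar starvation tested beside *DIN2*, 4 were called lower, 1 higher and 6 neither, near the shares of 34.1% lower and 16% higher among all paired genes, with a median of -0.58 on the log2 scale against 0.04 over all genes. *DIN11*, a dark-inducible dioxygenase gene, differed by -1.48 ± 0.28, *GDH2*, a glutamate dehydrogenase gene, by -1.34 ± 0.29, *TPS11* of the trehalose-phosphate synthase family by -1.20 ± 0.30 and *BCKDHA* of branched-chain amino acid breakdown by -0.63 ± 0.20, with adjusted p from 0.00464 to 0.0199 by edgeR. *BXL1*, a beta-xylosidase gene, was called higher (0.79 ± 0.18, adjusted p = 0.00637 by edgeR). *DIN11* and *GDH2* kept their calls without replicate 1 (-0.84 and -0.64, adjusted p = 0.0201 and 0.0422 by edgeR), while *TPS11* (-0.40), *BCKDHA* (-0.14) and *BXL1* (0.79, adjusted p = 0.0591) lost theirs. *BCKDHA* also lost its call without any 1 of 5 single libraries, all of replicate 1.

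Sulfur deficiency is the other condition named for *DIN2*. Of 9 tested genes of sulfur deficiency, 0 were called in the average by edgeR or by DESeq2, 3 had an unadjusted p under 0.05, all lower in Dex, and the median was -0.37. In that average 50.2% of all paired genes and 13.7% of all genes were called by edgeR, shares that also apply to the glucosinolate genes below. With a replicate block 1 was called lower, without replicate 2 there were 3, and over single left-out libraries 0 to 2, the latter without Dex replicate 2 at 2 h. In 5 of the 9 the interaction with replicate number passed, as it did for 30.3% of all genes tested. Of these 9 genes, 6 were paired only through the study's tables of changed genes. Those that passed included *APR3* (adjusted p = 7.05e-04) and *APR2* (adjusted p = 0.00193, both by edgeR), whose products reduce activated sulfate. *APR3* ran from 452 to 922 CPM in Mock and from 81.0 to 733 CPM in Dex. Among the 4 tested genes of glucosinolate breakdown beside *DIN2*, *NSP4*, a nitrile-specifier gene, was called higher (0.64 ± 0.16, adjusted p = 0.00780 by edgeR), and it was not called without replicate 1 (0.29, adjusted p = 0.280) or without Dex replicate 1 at 4 h (0.53) or 6 h (0.58).

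The 3 genes were compared with each other and with all other genes by the Pearson correlation of log2 CPM over the 24 libraries, as a description, since all points share treatment, time and library. *BGLU27* and *BGLU45* were alike (r = 0.899), also within the 12 Mock (r = 0.769) and the 12 Dex libraries (r = 0.805). *DIN2* was less like either, with r = 0.700 to *BGLU27* and 0.656 to *BGLU45* over all libraries and 0.420 and 0.330 within Mock.

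The genes most like each were taken among those with an *A. thaliana* counterpart, which 16.2% of the genes tested had. Of these paired genes 50.2% were called in the average. All genes named here except *UGE2*, *AKT1* and AT3G28690 were paired only through the study's tables of changed genes. For *BGLU27* they were *UGE2*, a UDP-glucose epimerase gene (r = 0.937), AT5G17380 (0.928), *G6PD6*, a glucose-6-phosphate dehydrogenase gene (0.923), AT1G06700 (0.916) and *AKT1*, a potassium channel gene (0.915), and 9 genes without a counterpart were more alike than the last. For *BGLU45* they were AT3G44870 (0.950), AT5G57500 (0.945), AT4G37710 (0.944), *JAZ5*, a repressor gene of jasmonate signalling (0.938), and *ILL6*, an amidohydrolase gene that acts on amino acid conjugates of jasmonate in *A. thaliana* (0.932), and no gene of the 21686 compared was closer than these 5. For *DIN2* they were AT3G28690 (0.931), *tic20-IV*, a chloroplast import gene (0.923), *NCED3*, of abscisic acid synthesis (0.919), AT1G48970 (0.917) and AT1G05060 (0.916), with 3 unnamed genes above the last. No gene was among the 5 of more than 1 of the 3 beta-glucosidases.

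The neighbours of *BGLU45* were the most stable: 4 of the 5 remained under Spearman's rho and 4 over the Mock libraries alone. Of those of *BGLU27* 1 remained under each, and of those of *DIN2* 3 remained under Spearman's rho and 0 over the Mock libraries. Over the Dex libraries the neighbours of *DIN2* had r from 0.901 to 0.949, and within Mock from 0.718 to 0.890.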

How the data were processed

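Poly(A) RNA of 24 seedling pools was sequenced. The deposited files hold whole-number read counts per gene, 1 file per library, which the authors made with STAR 2.4.2a and HTSeq 0.5.4p1 per the labels and tested with DESeq. For the genome build, annotation and strand setting, the entry is "not given in the sources used here". No coordinates or sequences are printed. Reads without a gene were 5.65% to 15.8% and ambiguous reads 0.192% to 0.370% of a library, and both stayed out. Replicates of a group differed beyond counting error (chi-square of 2.43 to 127 per degree of freedom).

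Counts were tested in edgeR 4.0.16 (R 4.3.3; TMM scaling, filterByExpr with a minimum count of 10, robust quasi-likelihood F-test, two-sided) on all 24 libraries with 1 coefficient per group. The interaction with replicate number used group, number and their treatment term. Calls needed an adjusted p under 0.05 (Benjamini-Hochberg over the 21689 genes) and, in the average of Dex against Mock, a fold over 1.5. CPM used scaled library sizes, with a prior count of 2 in log2 CPM. Intervals and the limit of 3 counts cover counting error only. Alternatives were DESeq2 1.42.0, other scaling, no filter, a replicate block and left-out libraries or replicates. The script was tested on simulated data.

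The genes and the lists were chosen with earlier results of these data known. Besides the 3 genes, the text names list genes called in the average (at most 6 per list by size), *BGLU46*, *BGLU47* and *BGLU28* as relatives and the 5 most alike genes. Other family genes and *APR2*, *APR3* were named after their values were seen. Names come from 4021 pairs of *C. hirsuta* and *A. thaliana* genes in the study's supplementary tables, 1846 of them only in its tables of changed genes, whose fold changes and p-values were not used.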

Additional observations from a re-analysis of the deposited data

Results flagged for a closer look

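The difference between Dex and Mock varied with the replicate number in each of the 3 beta-glucosidases, by a test of the difference itself (interaction of treatment and replicate number, edgeR with Benjamini-Hochberg adjustment over all genes). The adjusted p was 0.0311 for *BGLU27*, 0.00510 for *BGLU45* and 0.00394 for *DIN2*, and Dex was below Mock in replicate 1 at 4 of 4 times for each gene. The same test passed for 30.3% of all genes. For *BGLU27* it was lost without replicate 2 (0.0870) and without any 1 of 8 single libraries (up to 0.120). The genes were chosen on Dex against Mock, and larger changes in replicate 1 were already known for genes called there, so this is no independent finding about them. Heat shock and hypoxia genes were highest in Mock and lowest in Dex in replicate 1 too, and their part was not tested.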

How the results depend on the processing

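The time tests of the 3 genes stayed on the same side of the threshold under all alternatives run. The closest to it was *BGLU45* over time in Dex without replicate 1 (adjusted p = 0.0513 by edgeR). The average difference of the 3 genes kept its sign in all alternatives: over single left-out libraries it ran from -3.88 to -2.69 for *BGLU27*, -3.23 to -2.52 for *BGLU45* and -1.56 to -0.95 for *DIN2*. The interaction with replicate number held for *BGLU45* (0.00231 to 0.0222) and *DIN2* (0.00142 to 0.0180) without any single library, and for *BGLU27* ran from 0.00944 to 0.120 by edgeR. It was lost for *BGLU27* without replicate 2 (adjusted p = 0.0870), without replicate 1 or 2 of Dex at 6 h (0.0871 and 0.0602), of Dex at 8 h (0.120 and 0.0543) and of Mock at 6 h (0.0822 and 0.0577), and without replicate 1 at 4 h in Dex (0.0731) or Mock (0.0783).

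Over all genes, the calls of Dex against Mock numbered 2962 and ran from 0 to 4809 when replicate 1 (149), 2 (4809) or 3 (0, with 8601 at an unadjusted p under 0.05) was left out, and from 2103 to 3493 over single libraries. Mock over time went from 5442 calls to 6792, 1115 and 891 without replicates 1, 2 and 3, and over single libraries from 3145 to 6655 (3145 and 3255 without Mock replicate 2 or 3 at 2 h). Dex over time went from 3192 to 964 and 425 without replicates 2 and 3, and over single libraries from 1985 to 4390 (2057 and 1985 without Dex replicate 1 or 3 at 2 h). The interaction with replicate number went from 6572 to 0, 1367 and 8353 without replicates 1, 2 and 3, and over single libraries from 4330 to 7704 (4330 without Dex replicate 1 at 6 h). That with time went from 0 to 1 under DESeq2. The causes were not tested, beyond the fewer samples of each fit.

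Same-numbered Dex and Mock libraries did not deviate together (r from -0.593 to 0.137 in 12 pairs, 2 over 0.1, none highest with its own number), so the main fit did not take the numbers as pairs. Differences between same-numbered libraries are given as descriptions only. With a replicate block the calls were 2812, 5275, 3136 and 0 for Dex against Mock, Mock over time, Dex over time and the interaction with time, and the average differences were -2.85, -2.60 and -1.51. At 0 to 38 reads per Dex library, counting error limits *BGLU27* in Dex.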
